A study of Mus musculus with 6 samples.

Results

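The genes described here are the ribosomal protein pseudogenes that were read in mouse chondrocytes. They were taken as the genes that GENCODE M21 annotates as a pseudogene with a symbol beginning with Rpl or Rps, and 4 named genes, *Gm9625*, *Gm8199*, *Gm8730* and *Gm12901*, were added. A gene was kept if its reads summed to at least 10 over the 6 samples. This gave 164 of the 41388 genes in the count files. The files held 254 candidates, and 90 of them did not reach the minimum, among them 28 with no read. At the edge, 3 pseudogenes were kept with a sum of 10 and 5 candidates were left out with a sum of 9. In all, 6 of the 164 (*Rps3a3*, *Rplp0-ps1* and the 4 named *Gm* genes) were selected on their difference in read counts between the 2 genotypes in these samples, so their levels and fold changes are given as a description without a test.

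The samples were primary chondrocytes of femoral head cartilage from male mice aged 21 days on a B6/129 background, 3 with a germline knockout of periostin (*Postn*-/-) and 3 wild type (*wt*). The cells were cultured for 2 days and had no treatment, and each genotype was read in 3 mice. The knockout is not restricted to cartilage. RNA was made into full-length amplified cDNA and read as single-end reads of 50 bases. Total counts ran from 20587640 to 26572260, so that 3 counts, the counting floor, corresponded to between 0.113 and 0.146 CPM (counts scaled to the total of the library). *Postn* itself had normalized levels of 4.66, 4.27 and 5.67 CPM in *Postn*-/-, against 10.1, 10.3 and 6.90 in *wt*, and all 3 *Postn*-/- samples were lower. With 116, 105 and 119 reads in *Postn*-/- the gene was thus still counted, at a mean of 4.87 against 9.11 CPM, and the deleted part of the gene was not read apart from the rest. All 10 chondrocyte markers were above 1 CPM in every sample, and their summed level was 35429 to 46244 CPM in *Postn*-/- and 29137 to 42160 in *wt*. Within this list *Col2a1* was higher in every *Postn*-/- sample (15223, 13852 and 18429 CPM against 8096, 11688 and 9670 in *wt*). *Cnmd* was lower in every *Postn*-/- sample (4531, 3582 and 4793 CPM against 4963, 4893 and 5844 in *wt*). The summed levels of the endothelial, fibroblast, macrophage and blood, and osteoclast lists overlapped between the genotypes. In bulk samples such as these, a change in the share of a cell type and a change in RNA per cell cannot be told apart.

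Ribosomal proteins make up the small (Rps) and large (Rpl) subunits of the ribosome, and each is made from an intron-bearing coding gene that nearly all cells express highly. Their abundant mRNAs have been copied back into the genome many times by LINE reverse transcriptase, which leaves intronless processed pseudogenes at scattered sites. Many of these copies have lost the reading frame and most have no promoter of their own, although some are transcribed. A short read from a recent copy can fit both the copy and the coding parent gene, and counting then depends on the bases at which they differ.

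A stretch of *Rps3a3* is shown because so few bases part it from its coding parent. *Rps3a3* (ENSMUSG00000059751, processed pseudogene) is a single stretch of 795 bases on build GRCm38 at chr13:108670603-108671397 on the plus strand, in an intron of *Pde4d* and on the same strand as that gene. The first of the stretches of 300 bases that tie for the most differences, chr13:108670963-108671262, is printed from GENCODE M21 with capitals at the 5 bases that differ from the coding sequence of *Rps3a1*.
*Rps3a3*: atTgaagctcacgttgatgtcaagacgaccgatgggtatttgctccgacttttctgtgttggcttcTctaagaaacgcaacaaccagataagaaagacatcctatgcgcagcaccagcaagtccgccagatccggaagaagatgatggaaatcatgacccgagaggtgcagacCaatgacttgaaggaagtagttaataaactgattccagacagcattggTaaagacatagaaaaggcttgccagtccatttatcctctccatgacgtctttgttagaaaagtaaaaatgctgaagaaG

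Counted from 1 at the A of the start codon of *Rps3a1*, the 9 differences over the whole gene were T216C, T260C, C363T, A427T, T534C, G582T, A660G, C762T and G792A, with the base of *Rps3a1* first, and the printed stretch runs from base 361 to base 660. The sequences were 98.9% identical, had no inserted or missing base and each held 264 codons before the first stop. At 7 of the 9 sites the difference fell on the last base of a codon. Of the 746 words of 50 bases in *Rps3a3*, which is the length of a read, 65.1% occurred in the transcripts of another gene and 260 in none. *Rps3a1* (ENSMUSG00000028081, chr3:86137940-86142702, minus strand) shared 71.0% of its words. It lies on the chromosome of *Postn*, 31.8 Mb from it, as does *Rplp0-ps1* at 38.9 Mb. The bases compared are those of the reference genome. The mice had a mixed B6/129 background, and which strain's sequence each mouse carried at these genes or at the *Rplp0* copies was not read here, so that a part of strain sequence in the counts was not tested.

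*Gm8730*, *Gm9625*, *Rplp0-ps1* and *Gm8199* were all copies of *Rplp0*, which codes for the protein at the base of the stalk of the large subunit. Their relation is shown on the stretch from base 298 to base 447 of the *Rplp0* coding sequence, which was the first of the stretches of this length that tie for the most differences between *Rplp0* and *Gm8730*. *Rplp0* is given as spliced from its gene at chr5:115559467-115563727 (plus strand), and the pseudogenes at chr8:102865352-102865501 (*Gm8730*, minus strand), chr13:67810543-67810692 (*Gm9625*, plus strand), chr3:93278438-93278587 (*Rplp0-ps1*, plus strand) and chrX:144233135-144233284 (*Gm8199*, minus strand). The build was GRCm38, the sequences came from GENCODE M21, and capitals mark bases that differ from *Rplp0*.
*Rplp0*: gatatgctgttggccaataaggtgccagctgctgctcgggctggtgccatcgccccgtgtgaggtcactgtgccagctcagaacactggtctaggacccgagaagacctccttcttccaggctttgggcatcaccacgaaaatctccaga
*Gm8730*: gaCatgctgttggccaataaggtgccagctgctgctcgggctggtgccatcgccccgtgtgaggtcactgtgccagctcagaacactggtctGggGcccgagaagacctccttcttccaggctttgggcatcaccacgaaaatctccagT
*Gm9625*: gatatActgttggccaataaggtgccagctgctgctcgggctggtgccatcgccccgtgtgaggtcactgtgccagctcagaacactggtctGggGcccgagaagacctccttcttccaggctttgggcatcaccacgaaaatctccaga
*Rplp0-ps1*: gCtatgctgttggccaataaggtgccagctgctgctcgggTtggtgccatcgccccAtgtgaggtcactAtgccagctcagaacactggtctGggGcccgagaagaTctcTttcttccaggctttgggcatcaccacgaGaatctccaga
*Gm8199*: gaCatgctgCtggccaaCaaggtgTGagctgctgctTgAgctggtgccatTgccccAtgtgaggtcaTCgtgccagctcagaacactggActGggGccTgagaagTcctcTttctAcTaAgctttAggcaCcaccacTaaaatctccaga

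Over the whole coding sequence of *Rplp0*, *Gm8730* carried 12 substitutions and was 98.7% identical, with 317 codons before its first stop, as in *Rplp0*. *Gm9625* carried 24 substitutions and 1 inserted base (97.5% identical, 298 codons before the first stop). *Rplp0-ps1* carried 40 substitutions and lacked 15 bases (95.7%), and *Gm8199* carried 94, lacked 132 bases and met a stop after 107 codons (88.6%). All 4 differed from *Rplp0* at the same 8 sites, which were T72C, G138C, T192C, A390G, A393G, T603G, A696G and A784G, counted from 1 at the A of the start codon of *Rplp0* and with the base of *Rplp0* first. Of these, 7 were last bases of codons, and A390G and A393G lie in the printed stretch. Another 1 substitution was shared by 3 of the pseudogenes, 9 by 2, and 117 were found in 1. The share of 50-base words found in another gene was 73.7% for *Gm8730*, 50.8% for *Gm9625* and 26.7% for *Rplp0-ps1*, and *Gm8199* shared none. *Gm12901* (chr4:123258046-123258904, plus strand) matched *Rpl11*, a protein of the large subunit, at 92.6% of the aligned coding bases and shared 2.48% of its words.

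**Figure D1:**
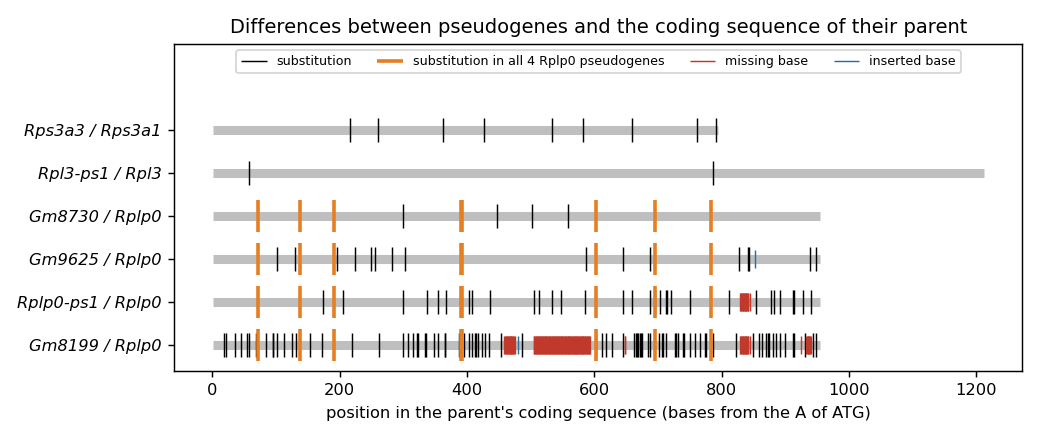
Position of each substitution (black), missing base (red) and inserted base (blue) along the coding sequence of the parent gene, in bases from the start codon, for 6 pseudogenes, with the 8 substitutions found in all 4 *Rplp0* pseudogenes in orange. *Rps3a3* shows 9 marks and *Rpl3-ps1* 2, while *Gm8199* shows 94 substitutions and 132 missing bases.

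Among all 164, 159 were annotated as processed and 5 as transcribed processed pseudogenes. They lay on 20 chromosomes, 16 of them on the chromosome that held most, and were 213 to 1214 bases long with a median of 455.5. In 53 cases the pseudogene lay within or over another gene, in an intron alone for 49. For 162 a coding parent was found by sequence, among 57 ribosomal protein genes, and for 157 of the 160 with an Rpl or Rps symbol it was the gene in the symbol. *Rpl31* had the most copies, 14, and 20 parents had 1. Identity to the parent had a median of 96.7% and ran from 76.2% to 100%, with 34 pseudogenes at 99% or more. The median share of 50-base words found in another gene was 38.9%. For 10 pseudogenes every such word occurred in another gene, and still reads were counted on them, among them *Rps16-ps2* with 795 in all, *Rpl10a-ps1* with 641 and *Rpl31-ps8* with 428. Levels of such pseudogenes are therefore uncertain.

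Together the 164 pseudogenes took 62806 reads. *Rps4l* was the most read with 13883 (22.1%), the 6 genes named above held 31394 (50.0%), and the other 157 shared 17529. Most were near the floor, with a median sum of 39 reads, 128 under 100 and 8 over 1000. By sample, the summed level of all 164 was 666, 508 and 438 normalized CPM in *Postn*-/- and 328, 481 and 257 in *wt*. The groups overlapped, because *wt* replicate 2 lay above *Postn*-/- replicate 3. Without the 6 genes it was 221, 236 and 191 CPM in *Postn*-/- (216 ± 23.1, mean ± SD, n = 3) and 229, 255 and 216 in *wt* (233 ± 20.2, n = 3), and the groups again overlapped. The 6 genes took 66.8%, 53.5% and 56.5% of the pseudogene reads in *Postn*-/- and 30.2%, 46.9% and 16.0% in *wt*. As a share of all counts, the 164 pseudogenes held 0.0259% to 0.0643%, against 1.42% to 1.91% on the 83 coding ribosomal protein genes.

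*Rps3a3* was counted with 5419, 2874 and 2155 reads in *Postn*-/- replicates 1, 2 and 3 and with 19, 26 and 579 in *wt* replicates 1, 2 and 3. Every *Postn*-/- sample was higher than every *wt* sample, and *wt* replicate 3 stood above the other two. The mean level (± SD, n = 3 each) was 146 ± 62.7 normalized CPM in *Postn*-/- against 9.88 ± 15.5 in *wt*, with a fitted log2 fold change (*Postn*-/- over *wt*) of 3.90. Without *wt* replicate 3 the log2 fold change was 7.26. *Rps3a1*, which codes for a protein of the small subunit, took the opposite course. It had 152, 2187 and 1488 reads in *Postn*-/- and 5701, 5758 and 3886 in *wt*, and all 3 *Postn*-/- samples were lower, replicate 1 by far the lowest. A log2 fold change of -2.01 was fitted (SE 0.75). It is given without a test, because the counts of *Rps3a1* mirrored those of *Rps3a3*, which was selected on this contrast.

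The share of *Rps3a3* in the reads of *Rps3a3* and *Rps3a1* together was 97.3% in *Postn*-/- replicate 1 (95% Wilson interval 96.8 to 97.7), 56.8% in replicate 2 (55.4 to 58.1) and 59.2% in replicate 3 (57.5 to 60.7). In *wt* it was 0.332% (0.213 to 0.518), 0.450% (0.307 to 0.658) and 13.0% (12.0 to 14.0). The intervals cover counting error only, since PCR copies were not marked. Within each genotype 1 sample lay far outside the intervals of the other two. The sum of *Rps3a1* and its pseudogenes *Rps3a3* and *Rps3a2* was much more even, at 224, 206 and 174 CPM in *Postn*-/- and 220, 262 and 214 in *wt*. The genotypes overlapped, and the log2 fold change of the sum was -0.21, given without a test because the sum contains *Rps3a3*. The spread within genotypes was summarised as chi-square per degree of freedom of the counts about the rate of their genotype, which is 1 where counting error is all there is. It was 606 for *Rps3a3*, 496 for *Rps3a1* and 68.4 for the sum.

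**Figure D2:**
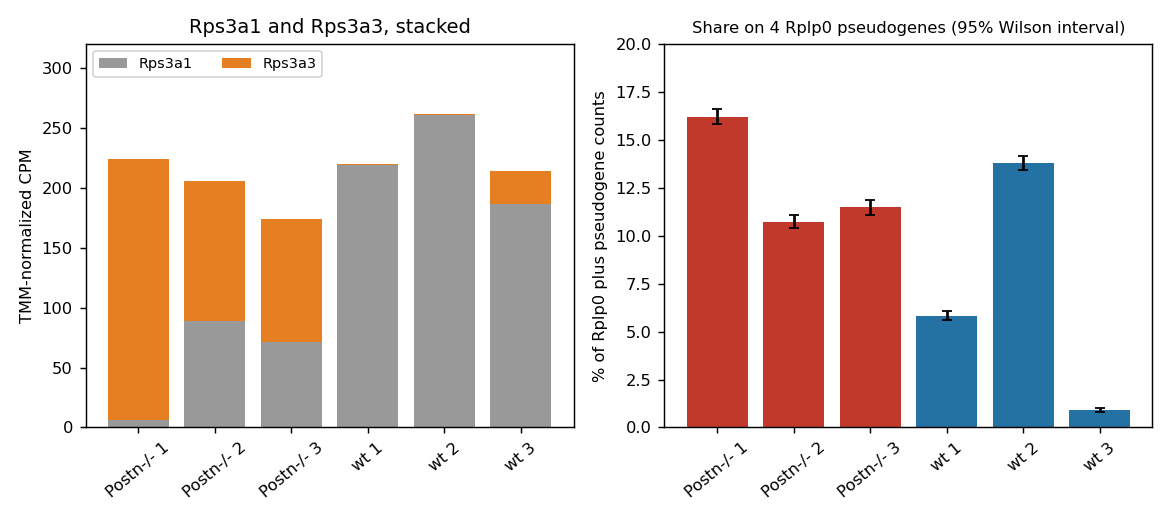
Left, normalized CPM of *Rps3a1* (grey) and *Rps3a3* (orange) stacked for each sample. Right, percent of the reads of *Rplp0* and its 4 pseudogenes that were counted on the pseudogenes, with 95% Wilson intervals as error bars (*Postn*-/- red, *wt* blue). The stacks have similar heights while the orange part runs from 0.332% to 97.3%, and on the right *wt* replicate 3 (0.885%) and *wt* replicate 1 (5.83%) are the lowest.

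The 4 *Rplp0* pseudogenes were low in the same samples. *Gm8730* had 2544, 1761 and 1277 reads in *Postn*-/- and 1213, 2182 and 172 in *wt*. *Gm9625* had 2459, 1612 and 1447 in *Postn*-/- and 1081, 2200 and 85 in *wt*. In both, *wt* replicate 3 was the lowest and *wt* replicate 1 the next lowest, while *wt* replicate 2 lay within or above the *Postn*-/- range, so the genotypes overlapped. *Rplp0-ps1* had 272, 174 and 121 reads against 89, 230 and 7, and *Gm8199* 269, 134 and 105 against 113, 260 and 7. After normalization these again had *wt* replicates 3 and 1 at the bottom. *Gm9625* had 0.891 to 1.13 reads for each read of *Gm8730* in 5 samples and 0.494 in *wt* replicate 3.

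Fitted log2 fold changes were 0.61 for *Gm8730*, 0.68 for *Gm9625*, 0.75 for *Rplp0-ps1* and 0.37 for *Gm8199*. They moved with single samples, and without *wt* replicate 3 the values were 0.11, 0.14, 0.20 and -0.18. Leaving out *wt* replicate 2 instead gave 1.51, 1.76, 2.04 and 1.57. Without *Postn*-/- replicate 1 they were 0.37, 0.48, 0.44 and -0.068. With voomWithQualityWeights, which weights each sample, they were 1.88, 2.54, 2.66 and 2.36 without surrogate variables and 1.01, 1.37, 1.49 and 1.13 with them. The 4 pseudogenes took 16.2%, 10.7% and 11.5% of the reads of the *Rplp0* family in *Postn*-/- and 5.83%, 13.8% and 0.885% in *wt*. *Rplp0* had the highest level of the parents named here, at 1153, 1244 and 1083 CPM in *Postn*-/- and 1549.6, 1380.0 and 1454 in *wt*, without overlap. Its log2 fold change was -0.33 (SE 0.12, unadjusted p = 0.0276, adjusted p = 0.717, the quasi-likelihood test of edgeR, Benjamini-Hochberg adjusted), and that of the family sum was -0.24. Because close copies of *Rplp0* were selected on this contrast, its p may not be independent of that selection. The call for *Rplp0* was lost without *Postn*-/- replicate 1 (unadjusted p = 0.0743) or 3 (0.0955) and without *wt* replicate 1 (0.0669) or 3 (0.0684) in the edgeR fit. Per kilobase of exon, *Rplp0* stood at 699 CPM in *Postn*-/- and 881 in *wt*, against 72.8 and 47.6 for *Gm8730*.

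*Gm12901*, the copy of *Rpl11*, had 112, 138 and 91 reads in *Postn*-/- and 65, 97 and 5 in *wt*. *wt* replicate 3 was again the lowest and *wt* replicate 1 the next, although the parent is another gene. The fitted log2 fold change was 1.01, or 0.49 without *wt* replicate 3 and 1.77 without *wt* replicate 2. In voomWithQualityWeights it was 2.65 without and 1.53 with surrogate variables. *Rpl11* was nearly level, with 190, 151 and 135 reads against 163, 165 and 153 and a log2 fold change of -0.06 (SE 0.18, unadjusted p = 0.752 from the same edgeR test). The share of *Gm12901* in the reads of both was 37.1%, 47.8% and 40.3% in *Postn*-/- and 28.5%, 37.0% and 3.16% in *wt* (95% Wilson interval of the last, 1.36 to 7.19). The sum of both had a log2 fold change of 0.30, or 0.16 without *wt* replicate 3 and 0.50 without *wt* replicate 2.

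**Figure D3:**
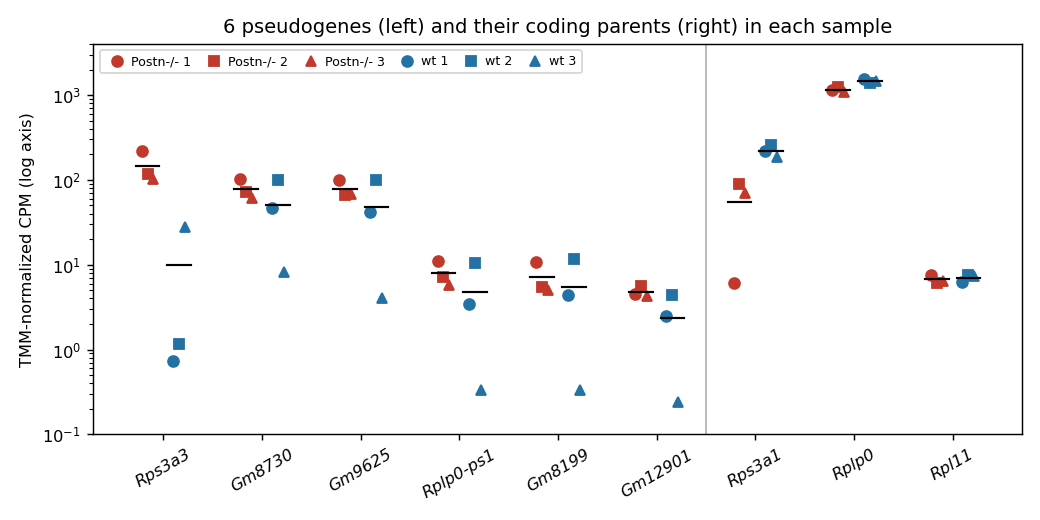
Normalized CPM on a log axis of the 6 pseudogenes selected with this contrast in view and of 3 coding parents, for each sample (*Postn*-/- red, *wt* blue, replicates 1, 2 and 3 as circle, square and triangle) with the group mean as a bar. *Rps3a3* separates the genotypes with *wt* replicate 3 at 27.7 CPM, and the *wt* triangle is the lowest point for the other 5 pseudogenes, down to 0.240 CPM for *Gm12901*.

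Of the remaining 158 pseudogenes, 24 passed the filter for the test (more than 1 CPM in at least 2 samples). None of them had an adjusted p of at most 0.05, where 0.0138% of the 14533 tested genes did (the quasi-likelihood test of edgeR, Benjamini-Hochberg adjusted). DESeq2 and voom also called 0 of them. At an unadjusted p not above 0.05, edgeR called 3, all lower in *Postn*-/-, which is 12.5% against a background of 6.3% over all tested genes, 3.95% for higher and 2.35% for lower calls. DESeq2 called 4 at this threshold, 3 of them lower. In 6 of the 24 every *Postn*-/- sample was below every *wt* sample, and in none was every one above. The background of genes without overlap was 13.6% in all, 7.03% for higher and 6.57% for lower ones. The log2 fold change was negative for 21 of the 24, with a median of -0.22 against 0.0042 over all tested genes. *Rps12-ps10*, 1 of the 21, passed the filter through *wt* samples alone, and without genes that passed through 1 genotype alone, a count added after seeing the data, 20 of 23 were negative, with a median of -0.21 against 0.0016.

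*Rpl31-ps8*, a copy of a gene whose protein lies at the exit tunnel of the large subunit, had 64, 61 and 38 reads in *Postn*-/- and 97, 85 and 83 in *wt*. The genotypes did not overlap, with means (± SD, n = 3 each) of 2.29 ± 0.42 CPM in *Postn*-/- against 3.85 ± 0.12 in *wt*. The log2 fold change was -0.75 (SE 0.22, unadjusted p = 0.0101, adjusted p = 0.717 from edgeR). The unadjusted p was between 0.0151 and 0.0407 whichever sample was left out. Its sequence is fully contained in transcripts of other genes, so its reads cannot be told from theirs by 50 reference bases.

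*Rpl37rt*, an annotated transcribed copy of *Rpl37* on chromosome 5, had 277, 240 and 196 reads in *Postn*-/- and 370, 304 and 258 in *wt*. The means were 10.1 ± 0.94 and 13.4 ± 0.97 CPM without overlap, and the log2 fold change was -0.42 (SE 0.15, unadjusted p = 0.0219, adjusted p = 0.717 from edgeR). The unadjusted p rose above the threshold without *Postn*-/- replicate 2 (0.0601) or 3 (0.0768) and without *wt* replicate 1 (0.0543) or 2 (0.0509). *Rps16-ps2*, whose words are all shared, had 123, 114 and 96 reads against 168, 177 and 117. Its log2 fold change was -0.50 (SE 0.20, unadjusted p = 0.0346, adjusted p = 0.717 from edgeR), and leaving out any *Postn*-/- sample (0.0588 to 0.0881) or *wt* replicate 2 (0.121) ended the call. The call was also lost with the replicate number as a block.

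*Rps4l*, the most read of all, is a transcribed processed pseudogene in an intron of *Tmtc1* on the opposite strand, and its sequence is 79.7% identical to *Rps4x*, the X-linked gene of a small subunit protein. None of its 50-base words was shared with *Rps4x*, and 14.9% occurred in other genes. It stood at 97.6, 101 and 85.4 CPM in *Postn*-/-, against 107, 113 and 89.9 in *wt*, so the genotypes overlapped. The log2 fold change was -0.12 (SE 0.12, unadjusted p = 0.343, adjusted p = 0.810 from edgeR). *Rps4x* stood at 92.1, 77.7 and 65.0 CPM against 84.8, 93.9 and 73.0 and also overlapped. Per kilobase of exon, *Rps4l* was at 101 and 110 CPM in *Postn*-/- and *wt*, against 48.0 and 51.4 for *Rps4x*. Within a genotype *Rps4l* ranged over at most 0.33 on the log2 scale, against 3.57 for *Gm8730*, 4.58 for *Gm9625* and 5.09 for *Rps3a3*.

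*Rpl3-ps1*, on the X chromosome, is a copy of *Rpl3*, whose protein lies near the peptidyl transferase centre. It differed from the coding sequence of *Rpl3* at 2 bases, C57A and T786C (counted as above, with the base of *Rpl3* first), and 95.7% of its words were shared. It had 151, 525 and 120 reads in *Postn*-/- and 149, 144 and 108 in *wt*. *Postn*-/- replicate 2 stood alone, and the other 5 samples lay between 5.18 and 6.51 CPM. The log2 fold change was 0.93 (SE 0.50, unadjusted p = 0.0979, adjusted p = 0.717 from edgeR) and was 0.019 without *Postn*-/- replicate 2 and 0.56 in voomWithQualityWeights without surrogate variables. *Rpl3* was lowest in that same sample, with 1921 reads against 3257 and 2000 in *Postn*-/- and 3469, 3080 and 2803 in *wt*. The share of *Rpl3-ps1* in the reads of both was 21.5% there (95% Wilson interval 19.9 to 23.1) and 3.71% to 5.66% in the other samples.

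*Rpl14-ps1* had 417, 385 and 281 reads in *Postn*-/- and 462, 408 and 352 in *wt*, which after normalization did not overlap (15.3 ± 1.72 against 17.7 ± 0.80 CPM). The log2 fold change was -0.21 (SE 0.14, unadjusted p = 0.156 from edgeR). *Rpsa-ps11* was level, at 8.72, 7.81 and 6.81 CPM against 8.38, 7.92 and 7.76. *Rpl10a-ps1*, *Rpl36-ps12* and *Rps10-ps1* overlapped between genotypes, with log2 fold changes of -0.40, -0.28 and -0.05. Wide ranges within a genotype were also found for *Rps15-ps2*, *Rpl13-ps3* and *Rps13-ps2*, between 1.09 and 1.53 on the log2 scale. All 3 overlapped between genotypes and had between 7 and 60 reads in a sample.

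**Figure D4:**
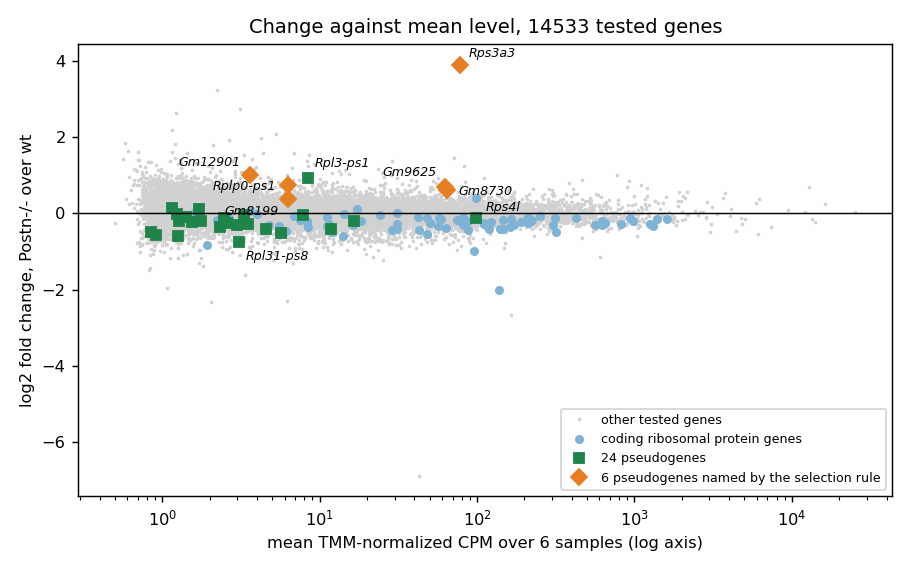
Fitted log2 fold change (*Postn*-/- over *wt*) against mean normalized CPM on a log axis for 14533 tested genes (grey), coding ribosomal protein genes (blue), 24 tested pseudogenes (green) and the 6 selected with this contrast in view (orange). The green and blue points lie mostly just below 0, with medians of -0.22 and -0.23, and *Rps3a3* lies at 3.90.

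The coding ribosomal protein genes gave a comparison for these shifts. Of 82 tested, 20 had an unadjusted p not above 0.05 in edgeR, all lower in *Postn*-/- (24.4%), and 77 had a negative log2 fold change with a median of -0.23. None passed the adjusted threshold by edgeR, DESeq2 or voom. In 23 of them (28.0%) the genotypes did not overlap, all lower. Both counts include *Rplp0* and *Rps3a1*, the parents of genes selected on this contrast, so they are not fully separate from that selection. Over all tested genes, 6.3% were called at the unadjusted threshold, 2.35% as lower. The genotypes did not overlap in 13.6% of all tested genes, 6.57% as lower. The 24 pseudogenes had a median close to that of the coding genes, while 405 other tested pseudogenes had a median of -0.02. Reads of recent copies can fit the coding parent, so these pseudogenes and the coding genes are not independent groups. How far this bears on the medians was not tested. Of these 405, 13 were called higher and 8 lower (5.19%), against the 6.3% over all tested genes.

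Counts of each parent and its pseudogenes were then added up and refitted, which gave 57 families. The 3 that contain genes selected on this contrast were left out of the counts of calls, which left 54. At an unadjusted p not above 0.05, 13 of the 54 (24.1%) were called by edgeR, all lower in *Postn*-/-, against a background of 6.3% over the 14503 features of this fit. The lowest adjusted p was 0.718, and 50 of the 54 had a negative log2 fold change, with a median of -0.21. For *Rpl3* the sum was at 137, 99.8 and 101 CPM in *Postn*-/- and 139, 146 and 139.7 in *wt* (log2 fold change -0.33, SE 0.14, unadjusted p = 0.0454), and the call was lost whichever sample other than *Postn*-/- replicate 1 was left out (unadjusted p from 0.0667 to 0.145 in edgeR). For *Rpl31* with its 14 copies the sum was at 13.2, 13.5 and 11.5 CPM against 14.1, 18.3 and 17.2 (log2 fold change -0.37, SE 0.15, unadjusted p = 0.0396). This call was lost whichever sample other than *wt* replicate 1 was left out (unadjusted p from 0.0540 to 0.124 in edgeR), and with every counted pseudogene of *Rpl31* in the sum, an alternative chosen after seeing the data (unadjusted p = 0.0779). Pseudogenes held a median of 2.64% of the reads of a family, more than 5% in 23 families and 55.0% in that of *Rps4x*. Most sums are therefore largely the counts of the parent, and the family calls are not separate from those of the coding genes.

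The spread within genotypes was also measured for the 24 pseudogenes. Their median range from the lowest to the highest of 3 samples, taken in the wider genotype, was 0.55 on the log2 scale, against 0.36 for coding ribosomal protein genes, 0.86 for other pseudogenes and 0.53 for all tested genes. None exceeded 2, a range that 2.17% of all tested genes exceeded. The 6 selected genes all exceeded it, with a median of 4.61, and their selection can bear on this value. In chi-square per degree of freedom the 24 had a median of 1.83, and 13 of them were under 2. All tested genes had a median of 6.85 and coding ribosomal protein genes, which have more reads, one of 23.0. The measure grows with the number of reads. *Rpl3-ps1* reached 85.4 at a mean of 8.43 CPM. This is somewhat above *Rplp0-ps1* (71.9 at 6.32 CPM) and *Gm8199* (83.5 at 6.28 CPM).

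**Figure D5:**
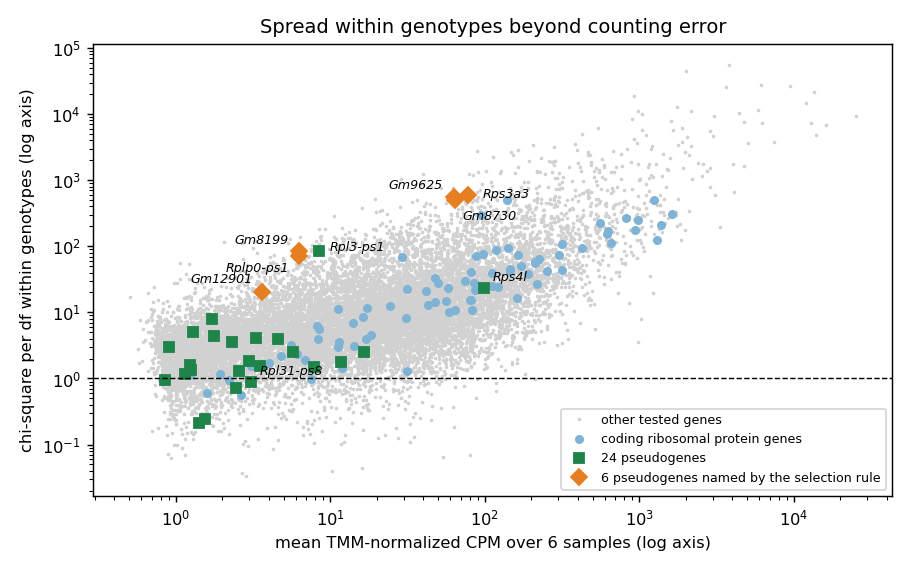
Chi-square per degree of freedom of the counts within genotypes against mean normalized CPM (both log axes), for the same gene groups as in the plot of fold changes, with counting error alone as a dashed line at 1. The 24 pseudogenes (green) have a median of 1.83 with *Rpl3-ps1* at 85.4, and the 6 selected genes (orange) run from 20.3 to 606.

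The other 134 pseudogenes were below the filter. They had 10 to 123 reads in all and 0 to 29 in a sample, and 23 had a sample with no read. Their median chi-square per degree of freedom was 1.21, and 106 were under 2. In 118 the genotypes overlapped, in 9 every *Postn*-/- sample was higher and in 7 every one was lower, so that 11.9% did not overlap. Among all 25528 genes with a sum of at least 10 the share was 12.4%, with 7.34% higher and 5.06% lower. When all genes with a sum of at least 10 were fitted, 2 of the 134 had an unadjusted p not above 0.05 in edgeR, against a background of 5.68% over 25528 genes. These were *Rps27-ps1* with 8, 3 and 3 reads in *Postn*-/- and 0, 1 and 1 in *wt* (unadjusted p = 0.0209) and *Rpl6l* with 4, 9 and 6 against 3, 2 and 1 (unadjusted p = 0.0367), both with an adjusted p of 0.812.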

How the data were processed

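RNA-seq counts of 3 *Postn*-/- and 3 *wt* chondrocyte samples were used. The authors aligned reads with STAR 2.0.4b and assigned to genes, with featureCounts 1.4.5, the reads that aligned uniquely and without ambiguity, and whether strand was used is not given in the sources used here. They deposited raw counts beside CPM and RPKM. The deposited CPM and RPKM were checked against the counts and not tested. The submitters' processing notes name mm9, but 76.1% of matched genes have the start and end of GENCODE M21 (GRCm38), to which 40340 of 41388 identifiers (97.5%) matched. No pair of the 15 looked like a repeated library (chi-square per degree of freedom 26.5 to 81.3).

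The filter asked for more than 1 CPM in at least 2 samples and dropped 355 rRNA genes, so that 14533 were tested. edgeR 4.0.16 (R 4.3.3) scaled by TMM and fitted by quasi-likelihood compared the genotypes without covariates, with Benjamini-Hochberg adjustment. The SE of a log2 fold change was its absolute value divided by the root of F. Ranges within genotypes used log2 CPM with a prior count of 2. The scripts were tested on simulated data. Alternatives were DESeq2 1.42.0, voomWithQualityWeights in limma 3.58.1 without and with 2 surrogate variables (sva 3.50.0), a robust fit, other scalings and filters, word lengths of 36 and 75 bases, a replicate block and leaving out each sample. After the data were seen, an alternative with every counted pseudogene of a parent in the sum was added.

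Parents were found with BLAST 2.17.0 (E-value of at most 1e-05) and coding sequences aligned with Biopython 1.88. Named genes were the 6 of the selection rule, the 10 others with the highest mean CPM, the 5 others with the widest range within a genotype, others with an unadjusted p not above 0.05, their parents and *Postn*, and 1 of them is not reported here. *Rps27-ps1* and *Rpl6l* were picked once their values were known. The members and lists were chosen with earlier results of these data known. That samples are separate mice comes from the study's methods.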

Additional observations from a re-analysis of the deposited data

How the results depend on the processing

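The direction of *Rps3a3* (log2 fold change 3.34 to 7.26), *Rps3a1* (-2.53 to -1.47) and the sum of their family (-0.29 to -0.11) held under every alternative run. The values of the *Rplp0* copies and *Gm12901* moved most without *wt* replicate 2 or 3 and in voom, and that of *Rpl3-ps1* without *Postn*-/- replicate 2. Depth limits the 134 pseudogenes below the filter, which had at most 29 reads in a sample, and shared sequence limits all levels of recent copies.

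Genes with an adjusted p of at most 0.05 numbered 2, and 1 under upper quartile scaling, no scaling, voom without surrogate variables and the replicate block, 0 when every sample had to exceed 1 CPM, 11 in DESeq2 and 1 to 2 when a sample was left out. Those with an unadjusted p not above 0.05 numbered 916, and 1450 without the filter, 1882 in voom with surrogate variables and 429 to 1258 with a sample left out. The 3 pseudogenes called at that threshold became 5 without the filter and 1 to 4 with a sample left out, and the 20 coding ribosomal protein genes became 10 to 25, and 30 in voom with surrogate variables. The cause was not tested.

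With the replicate number as a block, 1188 genes, 2 pseudogenes (*Rps16-ps2* was lost) and 29 coding ribosomal protein genes had an unadjusted p not above 0.05, and the log2 fold change of *Rps3a3* was 5.30. Deviations of same-numbered samples correlated at 0.08, 0.16 and 0.14, and every sample correlated best with its own number. These correlations are low, whether they exceed chance was not tested, and the design names no pairing.

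Some log2 fold changes near 0 changed sign. With a sample left out, the range was -0.18 to 1.57 for *Gm8199*, -0.13 to 0.039 for *Rpsa-ps11*, -0.22 to 0.16 for *Rps10-ps1*, -0.52 to 0.20 for *Rpl13-ps3* and -0.44 to 0.15 for *Rps13-ps2*. Among parents it was -0.16 to 0.0018 for *Rpl11*, -0.23 to 0.014 for *Rps4x*, -0.16 to 0.092 for *Rpsa*, -0.039 to 0.22 for *Rpl10a*, -0.19 to 0.015 for *Rps10* and -0.15 to 0.15 for *Rpl13*. Among family sums it was -0.13 to 0.12 for *Rpl10a*, -0.17 to 0.14 for *Rpl13*, -0.19 to 0.027 for *Rps10*, -0.25 to 0.029 for *Rps13* and -0.16 to 0.035 for *Rpsa*. The parent *Rpl13* (0.0031) was at -0.0069 with DESeq2's size factors, -0.0068 in DESeq2, -0.038 without the filter, -0.023 and -0.052 in voom without and with surrogate variables and -0.0011 with the replicate block. The sum of *Rpl10a* (0.016) was at -0.025 without the filter and at -0.00093 and -0.033 in voom without and with surrogate variables, and that of *Rpl13* (-0.011) was at 0.0046 under upper quartile scaling.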
